A study of Rattus norvegicus with 96 samples.

Results

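The comparison is between the ventral bed nucleus of the stria terminalis (vBNST) of rats with a history of alcohol dependence and that of alcohol naive rats. It rests on 7 of the 96 Affymetrix RN230.2 arrays of the study, 3 from dependent rats (replicates 2, 3 and 4) and 4 from naive rats. The rats were adult male Wistar rats. Dependent rats pressed a lever for 10% alcohol for 4 weeks, were then exposed to intermittent ethanol vapor for 4 weeks, were tested for drinking again, and were killed 3 weeks after the vapor ended. Non-dependent rats drank in the same way without vapor, and naive rats were of the same age and had no alcohol. There were 4 arrays from non-dependent vBNST, and they entered the fit to share the estimate of the spread. Dependent rats differ from naive rats in both drinking and vapor, which cannot be told apart in this comparison. The other 7 regions were the dorsolateral BNST (dlBNST), the central (CeA) and basolateral (BLA) amygdala, the core (NAcC) and shell (NAcSh) of the nucleus accumbens, the medial prefrontal cortex (mPFC) and the ventral tegmental area (VTA). Values are log2 signals, so a difference of 1 is a doubling.

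The bed nucleus of the stria terminalis belongs to the extended amygdala, the forebrain continuum that links stress and reward circuits. Most of its neurons use GABA, and a smaller ventral population uses glutamate and projects to the midbrain. The nucleus borders the striatum, the preoptic area and the ventricle, and its peptides, such as corticotropin-releasing factor, enkephalin and dynorphin, are known for their part in withdrawal and anxiety.

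Dependent replicate 1 was left out because the array itself stood apart. Its 18 bacterial hybridization control probe sets averaged 11.81, against 8.71 to 9.94 on the other 11 vBNST arrays, and its highest correlation with any array was 0.96, against 0.99 or more for the others. Among the arrays kept, a sign of RNA quality went with the groups: the signal at the 3′ end of Gapdh exceeded that at the 5′ end by 1.75 to 1.82 in dependent rats, by 1.76 to 2.07 in non-dependent rats and by 2.40 to 2.95 in naive rats, with no overlap between dependent and naive arrays. The same measure for Actb overlapped, at 7.14 to 8.06 in dependent rats and 6.83 to 7.58 in naive rats. With the Gapdh measure as a covariate, 434 genes were higher and 380 lower in dependent rats at an unadjusted p under 0.05. Without it, 505 (5.81%) were higher and 797 (9.16%) lower of 8697. As the measure separated dependent from naive arrays, its part can hardly be told from that of the group.

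The markers of the label were read first. Gad1, which encodes a GABA-synthesizing enzyme, read 13.80, 13.82 and 13.86 in dependent vBNST and 13.83 to 13.87 in naive vBNST. Slc32a1, the vesicular GABA transporter, averaged higher in naive vBNST (10.67) than in 6 of the other 7 regions of naive rats. Slc17a7, the transporter of cortical glutamate neurons, stayed at 3.15 to 3.24 in dependent vBNST and 3.12 to 3.39 in naive vBNST, against 11.75 in naive mPFC. The markers Chat, Hcrt and Pmch, of cholinergic, orexin and melanin-concentrating hormone neurons, also read under 4 on the dependent and naive arrays used. Markers that were highest in the vBNST of the 8 regions of naive rats did not all hold in the dependent arrays. Cyp19a1, which encodes aromatase, averaged 4.39 ± 0.35 in dependent vBNST (SD, n = 3), against 6.42 ± 0.44 in naive vBNST (SD, n = 4) and 4.55 in naive dlBNST. Dlx1, a homeobox factor of GABA neurons, averaged 8.55 ± 0.42 in dependent vBNST (SD, n = 3), against 9.76 ± 0.42 in naive vBNST (SD, n = 4) and 6.43 in naive dlBNST. Gad2, a second GABA-synthesizing enzyme, averaged 8.69 in dependent vBNST, 8.41 in naive vBNST and 8.35 in naive dlBNST. The dependent arrays carried the GABA markers of the label, while Cyp19a1 stood near the level of naive dlBNST. The part of the place of dissection in the differences was not tested.

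Did gene expression differ between dependent and naive vBNST? No gene of 8697 tested passed an adjusted p of 0.05 (limma, Benjamini-Hochberg), and the lowest adjusted p was 0.0691. The 505 higher and 797 lower genes above had an unadjusted p under 0.05 only. The 3 dependent arrays lay above all 4 naive arrays for 436 genes (5.01%) and below them for 702 genes (8.07%). The median difference over all genes was -0.03, and 44 genes differed by more than 1, 24 of them higher and 20 lower in dependent rats. The count of 0 turned on the arrays used: it was 21 without non-dependent replicate 1, 4 without naive replicate 1, 1 without naive replicate 2, 3 or 4, and 0 without any dependent array or non-dependent replicate 2, 3 or 4. With array weights, which let limma trust some arrays more, it was 93.

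The 10 genes of smallest p on the higher side, none of which passed, had adjusted p from 0.0691 to 0.0793. Camk2n1, an inhibitor of the calcium and calmodulin kinase II, read 6.95, 7.41 and 7.29 in dependent vBNST, against 6.13, 5.88, 6.50 and 6.31 in naive vBNST, a difference of 1.01 (SE 0.17). Nfia, a transcription factor of glial development, read 10.38, 10.24 and 10.02 in dependent vBNST, against 9.50, 9.65, 9.60 and 9.58 in naive vBNST. In both genes the dependent arrays lay above all naive ones. The non-dependent arrays of Camk2n1, at 6.12 to 6.54, overlapped the naive arrays, while those of Nfia, at 9.71 to 9.94, lay between the other groups. The others were Arpp21 (2.03), Ccdc77 (1.44), Vcl (0.77), Nudt2 (0.76), Sobp (0.69), Gosr1 (0.68), Sf3b5 (0.58) and Efcab14 (0.54). Vcl encodes vinculin of focal adhesions, Gosr1 a SNARE of the Golgi, Nudt2 a hydrolase of diadenosine tetraphosphate and Sf3b5 a subunit of a splicing complex.

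The 10 genes of smallest p on the lower side had an adjusted p of 0.0691 each and did not pass either. Uckl1, an enzyme like the uridine-cytidine kinases, read 6.83, 6.72 and 7.04 in dependent vBNST, against 7.69, 7.72, 8.10 and 7.71 in naive vBNST, a difference of -0.94 (SE 0.13). Hpcal1, a neuronal calcium sensor, read 8.84, 8.42 and 8.75 in dependent vBNST, against 9.24, 9.61, 9.66 and 9.56 in naive vBNST. Trhde, the ectoenzyme that degrades thyrotropin-releasing hormone, read 6.47, 6.79 and 6.42 in dependent vBNST, against 7.54, 7.90, 8.03 and 7.72 in naive vBNST. For all 3 the groups were set apart, and for Uckl1 the non-dependent arrays (6.87 to 7.19) were also below every naive array. The other 7 differences ran from -0.93 to -0.61: Crebrf, a regulator of CREB3 (-0.93), Rbbp5, a subunit of histone methyltransferase complexes (-0.77), Nell2 (-0.72), Rragc, a Rag GTPase of nutrient sensing (-0.70), Rab4a, a GTPase of endosome recycling (-0.64), Tubgcp3, of the gamma-tubulin complex (-0.63), and Mmaa, of cobalamin metabolism (-0.61). In naive rats 7 of these 10 genes, namely Uckl1, Hpcal1, Rbbp5, Crebrf, Trhde, Tubgcp3 and Rragc, had their highest mean in the vBNST among the 8 regions, against 13.1% of all genes tested, but the same naive arrays had chosen them. In non-dependent rats, whose arrays are in neither group compared, it was 4 of the 10 (Hpcal1, Rbbp5, Crebrf and Tubgcp3), against 11.2% of all genes. Those arrays still entered the choice of genes through the spread of the fit.

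Of the 20 genes, 5 were measured by further probe sets above the filter, 7 probe sets in all. The difference had the same sign in 6 of the 7, but none reached an unadjusted p under 0.05. Over all genes tested, 1278 of 2177 further probe sets (58.7%) had the sign of the probe set used.

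Did the vBNST differ from the rest of the series in this comparison? The dependent minus naive difference in the vBNST was tested against the mean of the same difference in the other 7 regions, over 92 arrays and 8762 genes. The regions were dissected from the same rats, 4 per group, and the labels do not say which arrays share a rat, so the fit takes as independent arrays that are not. With equal numbers within a group read as 1 rat, their estimated correlation was -0.002 and the same 13 genes passed. For 13 genes (0.148%) this difference between regions passed an adjusted p of 0.05, with 6 higher and 7 lower in the vBNST of dependent rats. In all 13 the vBNST had the largest difference in size among the 8 regions, and in 12 the dependent and naive arrays did not overlap, Prpf19 being the exception. Both counts follow closely from choosing the genes on these same arrays, and over all genes tested in the vBNST 13.1% did not overlap. The test borrows its spread from all 8 regions. For Frem3 its SE was 0.37, against 0.56 for the vBNST difference in the vBNST arrays alone, and none of the 13 passed there (adjusted p 0.0691 to 0.186).

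**Figure D1:**
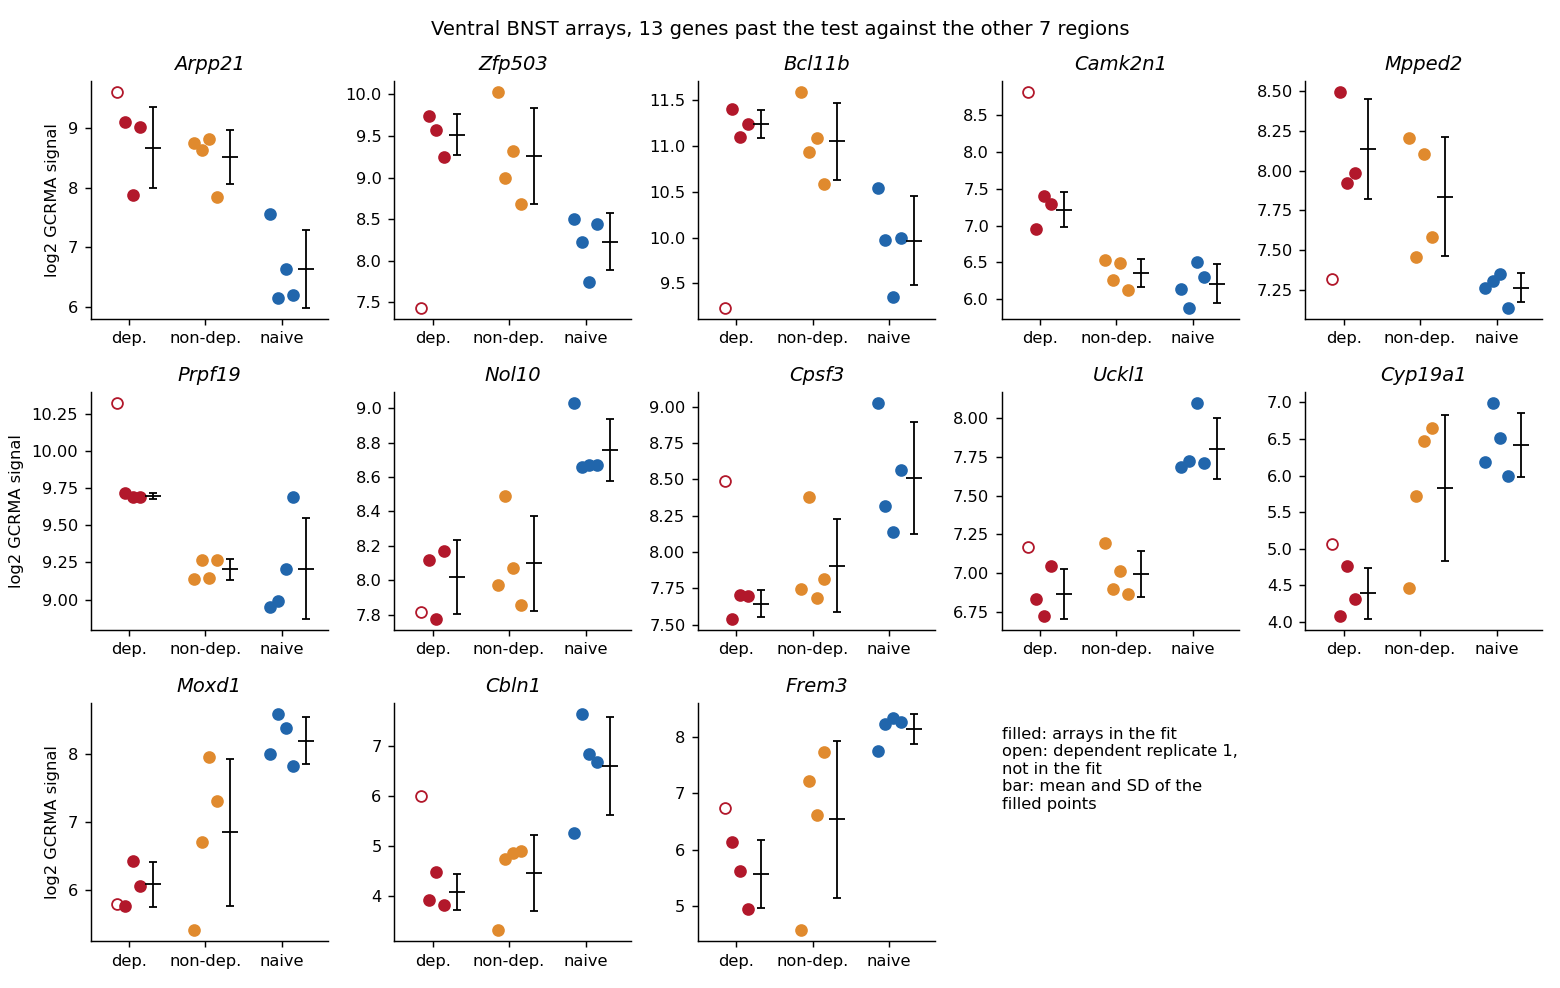
Log2 GCRMA signal (y axis) of the 13 genes on each vBNST array, with dependent, non-dependent and naive rats from left to right; bars give the mean and SD of the filled points, and open circles are dependent replicate 1, which was not used. For 12 genes, all but Prpf19, the filled dependent points lie wholly above or wholly below the naive points, but these arrays also chose the genes.

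Arpp21 gave the smallest p of the region test. It encodes a cyclic AMP-regulated phosphoprotein that is abundant in striatal medium spiny neurons. Its signal was 9.10, 7.88 and 9.01 in dependent vBNST, 8.75, 8.63, 8.82 and 7.84 in non-dependent vBNST and 7.55, 6.15, 6.64 and 6.20 in naive vBNST. Both drinking groups lay above every naive array and overlapped each other. The vBNST difference was 2.03 (4.08-fold higher in dependent rats), the other 7 regions ranged from -0.02 to 0.59, and the difference between them was 1.82 (SE 0.22, adjusted p = 2.74e-08). The 2 other probe sets of the gene gave smaller differences, 0.97 and 0.73, and did not reach an unadjusted p under 0.05.

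Bcl11b, Zfp503 and Meis2 are transcription factors of the developing striatum. Bcl11b read 11.40, 11.10 and 11.24 in dependent vBNST, against 10.54, 9.97, 9.35 and 10.00 in naive vBNST, and its difference exceeded that of the other regions by 1.29 (SE 0.24, adjusted p = 0.00184). Zfp503 read 9.74, 9.57 and 9.24 in dependent vBNST, against 8.51, 8.23, 7.74 and 8.44 in naive vBNST, and exceeded the other regions by 1.38 (SE 0.27, adjusted p = 0.00278). A further probe set of each gave a like difference, 1.65 for Bcl11b and 1.21 for Zfp503. Meis2, named after its values were seen, did not pass the region test; it read 11.97, 11.85 and 11.54 in dependent vBNST and 10.85, 10.63, 9.60 and 10.36 in naive vBNST.

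The other 3 genes on the higher side had smaller departures. Camk2n1 exceeded the other regions by 1.02 (adjusted p = 0.0472), Mpped2, a metallophosphoesterase, by 0.92 (adjusted p = 0.00472) and Prpf19, a splicing factor and ubiquitin ligase, by 0.64 (adjusted p = 0.0306). Camk2n1 kept its call only without naive replicate 3, and Prpf19 only without naive replicate 4, when each of the 7 vBNST arrays was left out in turn. The adjusted p then ran from 0.0306 to 0.458 for Camk2n1 and from 0.00143 to 0.278 for Prpf19.

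On the lower side, Frem3, an extracellular matrix protein, had the largest difference. It read 6.14, 5.63 and 4.95 in dependent vBNST, 4.58, 7.21, 6.62 and 7.74 in non-dependent vBNST and 7.76, 8.22, 8.33 and 8.26 in naive vBNST. The dependent arrays were all below the naive ones, and the non-dependent arrays ran from below the lowest dependent array to just under the lowest naive one. The vBNST difference was -2.57 (5.94-fold higher in naive rats), against -0.47 to 0.34 in the other regions, and the difference between them was -2.58 (SE 0.37, adjusted p = 3.82e-06). The naive means of the other regions were 2.76 to 4.74, near the low end of the signal, where a fall can hardly be seen. The gene's mean over the 92 arrays was 4.03, just above the filter of 4, so the other regions are a weak comparison for it.

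Cyp19a1, the aromatase that makes estradiol from testosterone, read 4.09, 4.77 and 4.31 in dependent vBNST and 6.18, 6.99, 6.52 and 5.99 in naive vBNST. Its difference fell below that of the other regions by 1.93 (SE 0.28, adjusted p = 3.82e-06), and a further probe set gave -1.89 in the vBNST. The naive means of the other regions, 3.42 to 4.55, were near the low end of the signal, so a fall could hardly be seen there. In the non-dependent group replicate 1 read 4.47, among the dependent arrays, while the other 3 read 5.72, 6.47 and 6.66. The dependent vBNST mean (4.39 ± 0.35, SD, n = 3) lay between those of naive dlBNST (4.55) and naive CeA (4.26).

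Moxd1, a monooxygenase related to dopamine beta-hydroxylase, read 5.76, 6.43 and 6.06 in dependent vBNST and 8.00, 8.59, 8.39 and 7.83 in naive vBNST, with no overlap. The difference was -2.12 in the vBNST and 0.77 in the dlBNST, and the region test gave -2.17 (SE 0.34, adjusted p = 4.63e-05). Cbln1, a secreted organizer of synapses, read 3.93, 4.50 and 3.84 in dependent vBNST and 5.27, 7.63, 6.84 and 6.67 in naive vBNST. Its dependent and non-dependent values (3.33 to 4.91) lay close to the low end of the signal, its difference from the other regions was -2.24 (adjusted p = 0.00374), and the VTA had the next largest difference, -1.52.

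The remaining 3 on the lower side serve RNA and nucleotide metabolism. Cpsf3, the endonuclease that cleaves messenger RNA precursors before polyadenylation, differed from the other regions by -0.77 (adjusted p = 0.00514), Uckl1 by -0.92 (adjusted p = 0.0266) and the nucleolar gene Nol10 by -0.68 (adjusted p = 0.0274). With the Gapdh measure as a covariate, the vBNST difference of Cpsf3 was -0.07, against -0.87 without it, and that of Nol10 was -0.24, against -0.74. The covariate made other differences larger, such as that of Cyp19a1, at -4.35 against -2.03. The measure did not overlap between dependent and naive arrays, so its part can hardly be told from that of the group. Without dependent replicate 2, 6 genes passed in all, and without naive replicate 1, 8 did; over the 7 arrays left out in turn the count ran from 6 to 13. Arpp21, Bcl11b, Cyp19a1 and Moxd1 passed each time, and Frem3 passed each of the 3 times that it met the filter. Adding the arrays that stand apart, dependent vBNST replicate 1 among them, left 6 genes, 4 of them from the 13.

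**Figure D2:**
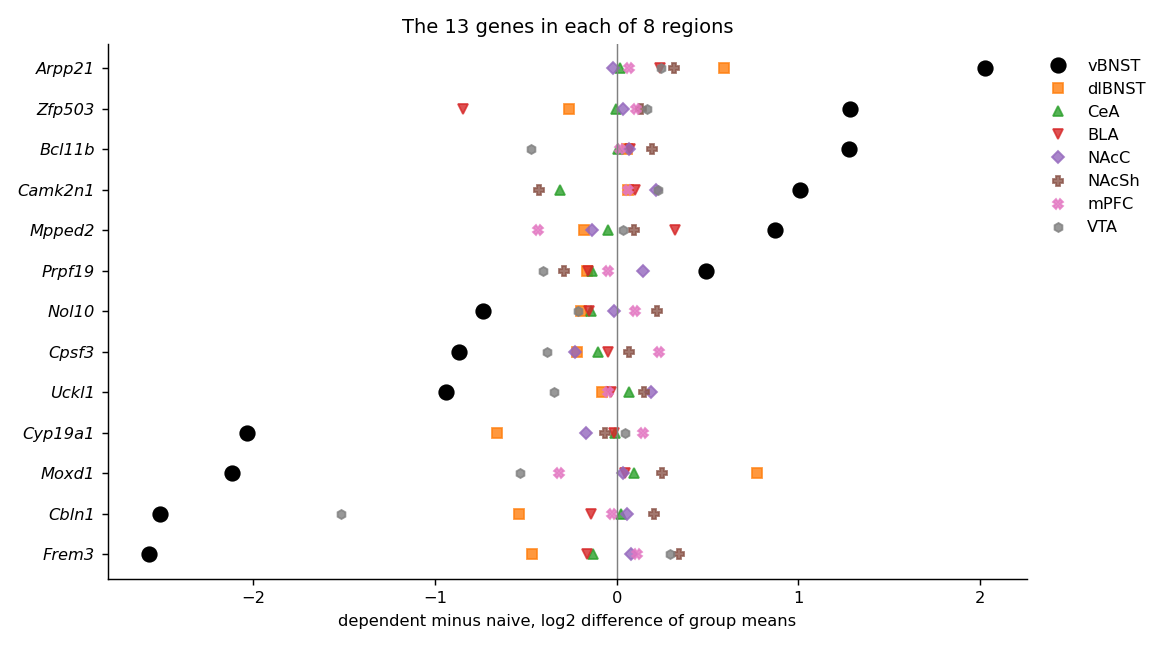
Dependent minus naive difference of group means, in log2 units (x axis), of the 13 genes in the vBNST (black circles) and in each of the other 7 regions (coloured symbols). The vBNST point is the farthest from 0 for each of the 13 genes, which were chosen on that difference. The VTA point of Cbln1 at -1.52 is the farthest among the other regions.

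Dependent replicate 1, which was left out of the main tests, lay on the dependent side of every naive array for 8 of the 13 genes. The share over all genes was not counted, and this array stood apart, so the 8 cannot be read as a further replicate. Of the 13 genes, dependent replicate 1 read 9.60 for Arpp21, 5.07 for Cyp19a1, 5.79 for Moxd1 and 6.75 for Frem3. For Bcl11b (9.23) and Zfp503 (7.43) it lay below every naive array, opposite to the other dependent arrays.

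The nearest region, the dlBNST, was also compared on its own. No gene of 8721 passed an adjusted p of 0.05 for the difference between the 2 sub-regions (limma, lowest adjusted p 0.082), and 538 (6.17%) had an unadjusted p under 0.05. The 5 of smallest p were Slitrk3, a synaptic adhesion protein, Rasgrp2, a guanine nucleotide exchange factor, Acadsb, a mitochondrial dehydrogenase, Zfp503 and Moxd1. For Slitrk3 the dependent minus naive difference was 0.52 in vBNST and -0.32 in dlBNST. For Rasgrp2 it was 0.27 in vBNST and -0.93 in dlBNST, and for Acadsb 1.03 in vBNST and -0.22 in dlBNST. Acadsb was under the filter in the vBNST fit. It read 3.85 to 4.43 in dependent and 2.98 to 3.27 in naive vBNST, near the low end of the signal. The 5 genes, chosen for a difference between the sub-regions, differed in sign between them, yet that difference did not pass. Leaving out naive replicate 4 gave 1 call. Of 8516 genes tested in both sub-regions, 65.4% had the same sign in dlBNST. Of those with an unadjusted p under 0.05 in vBNST, 1031 of 1261 (81.8%) did. So did 18 of the 20 genes named first and 7 of 11 genes past the region test. Sobp differed by 0.69 in vBNST and 0.71 in dlBNST, and Ccdc77 by 1.44 and 1.19, while Hpcal1 differed by -0.85 and 0.34.

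Non-dependent rats drank without vapor, and their arrays were set beside those of both other groups. No gene passed for dependent minus non-dependent (443 of 8697, 5.09%, at an unadjusted p under 0.05) or for non-dependent minus naive (640, 7.36%), and these comparisons share arrays with the main one. The non-dependent mean lay between the dependent and naive means for 12 of the 13 genes. Of all genes with an unadjusted p under 0.05 it lay between for 1134 of 1302, and of all genes tested for 4332 of 8697. Genes chosen for a large difference leave more room between the 2 means. It was nearer to the dependent mean for 10 of the 13, against 667 of the 1302 and 4284 of all 8697. Among these were Arpp21, Zfp503, Bcl11b, Cbln1, Uckl1 and Nol10, with non-dependent minus naive differences of 1.87, 1.03, 1.08, -2.14, -0.81 and -0.66. The means of Camk2n1 (0.15), Cyp19a1 (-0.59) and Prpf19 lay nearer to the naive mean. Among the 4 non-dependent arrays, replicate 1 lay at or beyond the dependent mean for 8 of the 13 genes. It was the array farthest to the dependent side for 8 genes, against 1, 2 and 2 for replicates 2, 3 and 4. The share over all genes was not counted, so this cannot be called particular to the 13.

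**Figure D3:**
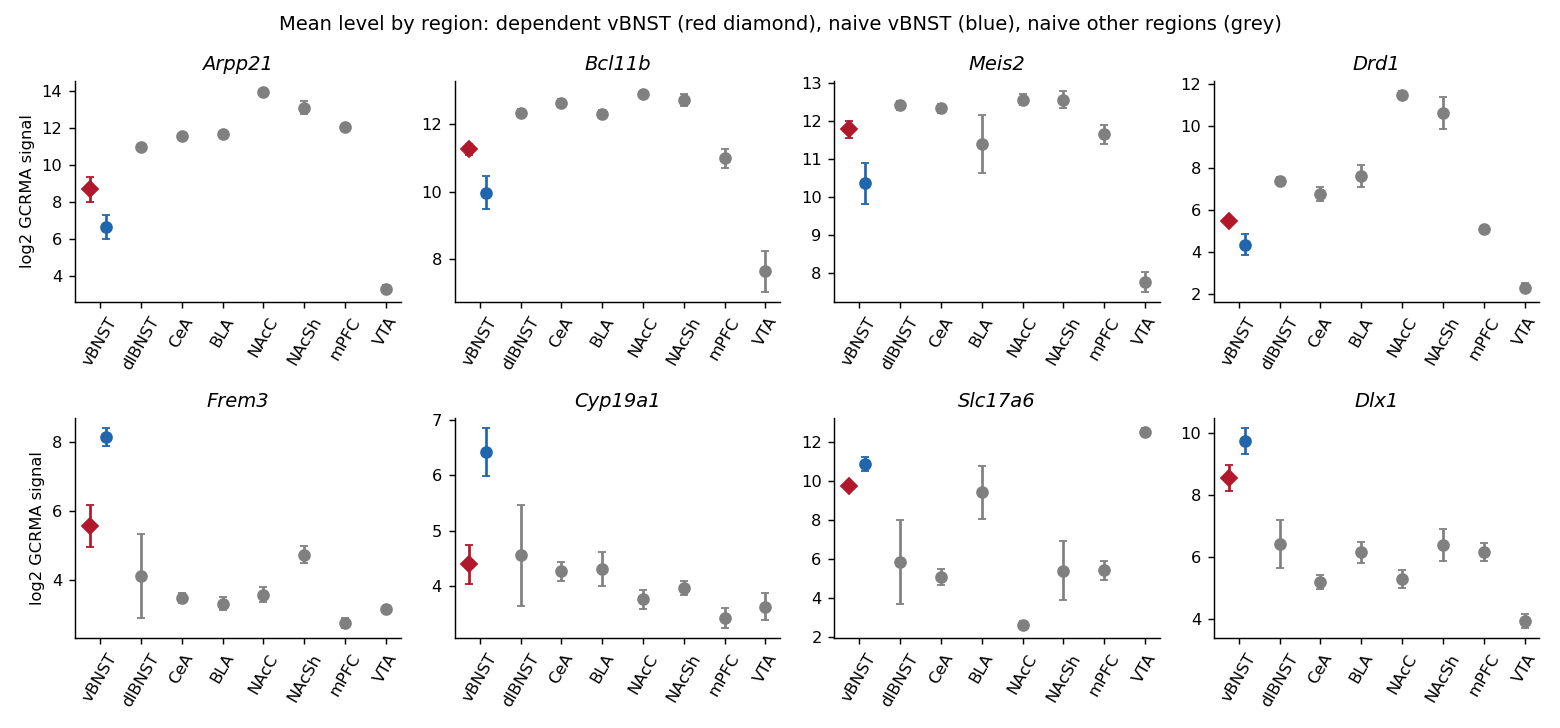
Mean log2 GCRMA signal (y axis) with SD in dependent vBNST (red diamond, n = 3), naive vBNST (blue, n = 4) and the other 7 regions of naive rats (grey, n = 4 each). In the upper row dependent vBNST lies above naive vBNST and toward dlBNST. In the lower row it lies below naive vBNST, for Cyp19a1 at 4.39 beside the 4.55 of dlBNST. The genes were picked for display, and not all passed the region test. Moxd1 passed it but is not shown. It averaged 6.08 in dependent vBNST, 8.20 in naive vBNST and 8.15 in naive dlBNST, so it did not move toward dlBNST.

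The naive level of the 13 genes in each region is a description, since the naive vBNST arrays also chose the genes. On the higher side, Arpp21 averaged 6.64 in naive vBNST, against 10.99 in dlBNST and 13.94 in NAcC, and Bcl11b averaged 9.97 in naive vBNST, against 12.33 in dlBNST and 12.89 in NAcC. Camk2n1 was lowest in the vBNST of the 8 regions, Mpped2 was the seventh and Zfp503 the sixth, while Prpf19, at 9.21, was the fourth. On the lower side, Frem3 averaged 8.14 in naive vBNST and 4.74 or less in each other region. Uckl1, Cpsf3, Nol10 and Cyp19a1 also had their highest naive mean in the vBNST. Cbln1 was the second, at 6.60, against 9.81 in VTA, and Moxd1 the sixth, at 8.20, with dlBNST (8.15) and VTA (3.49) below it. In non-dependent rats 2 of the 7 genes on the lower side, Frem3 and Cyp19a1, were highest in the vBNST. Of the 797 genes lower at an unadjusted p under 0.05, 283 (35.5%) were highest there in naive rats and 166 (20.8%) in non-dependent rats. Over all genes the shares were 13.1% and 11.2%. The non-dependent arrays entered the choice of genes too, through the spread of the fits.

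All genes were then set against the regional difference. So that no array entered both differences, the genes were ordered by the vBNST minus dlBNST difference in non-dependent rats. That choice was made after the values were seen. Of the 100 genes most above dlBNST there, 82 were lower in dependent than in naive vBNST (35 lower and 5 higher at an unadjusted p under 0.05, against 797 and 505 of all 8697), with a median difference of -0.34. Of the 100 most below dlBNST, 73 were higher in dependent vBNST (23 higher and 3 lower at an unadjusted p under 0.05), with a median of 0.20. Over all genes tested 55.6% were lower and 44.4% higher in dependent vBNST, with a median of -0.03. Across the 8697 genes, which are not independent replicates, Pearson's r was -0.37 and Spearman's rho -0.36. For 3 other regions minus dlBNST in naive rats, Pearson's r was 0.13 (NAcC), 0.14 (NAcSh) and -0.15 (VTA). The p-values behind the counts above drew their spread in part from the non-dependent vBNST arrays. 

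**Figure D4:**
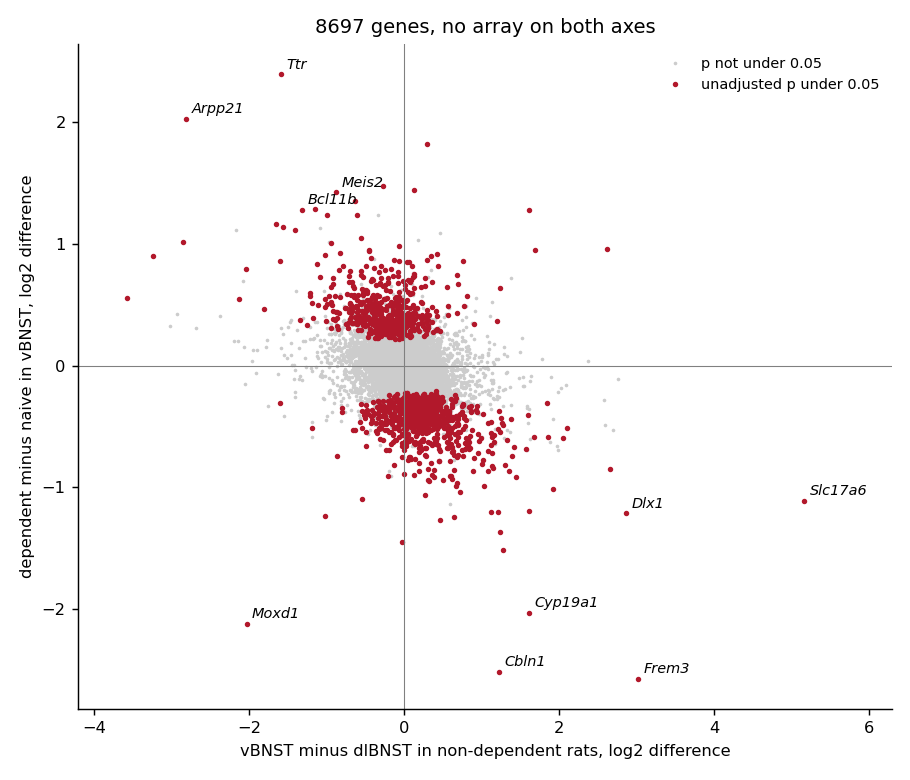
Each point is a gene, with the vBNST minus dlBNST difference in non-dependent rats on the x axis and the dependent minus naive difference in vBNST on the y axis, both in log2 units; red points have an unadjusted p under 0.05. The cloud slopes downward (r = -0.37), with Arpp21 and Ttr at the upper left, Frem3 and Cyp19a1 at the lower right, and Moxd1 at the lower left against the slope.

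The marker lists give the same measurements by cell class, and no list member passed the adjusted threshold in the vBNST fit. List members are named for an unadjusted p under 0.05, after their values were seen, unless they are fixed markers (Drd1, Drd2, Ttr, Mbp, Penk, Crh, Npy1r), Nr3c1 or genes of the corticotropin-releasing factor system. In the list of striatal medium spiny neuron markers, 7 of 16 tested members were higher (Arpp21, Bcl11b, Drd1, Foxp2, Ppp1r1b, Pde10a and Foxp1) and 2 lower (Tac1 and Penk) at an unadjusted p under 0.05, and the median was 0.29, against 5.81% higher, 9.16% lower and a median of -0.03 over all genes tested. The mean signal of the list was 7.49 to 7.63 in dependent vBNST, 7.34 to 7.68 in non-dependent vBNST and 7.14 to 7.29 in naive vBNST. Drd1, the D1 dopamine receptor, read 5.51, 5.34 and 5.63 in dependent vBNST and 4.94, 4.35, 3.70 and 4.43 in naive vBNST, and Drd2 overlapped, at 3.83 to 4.32 in dependent vBNST and 3.57 to 4.14 in naive vBNST. Adora2a, Rgs9, Adcy5 and Gpr6 of this list were under the filter. RNA from bulk tissue cannot tell a shift in the share of a cell type from a shift in RNA per cell.

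Among hypothalamic and preoptic markers 2 of 5 tested were lower, Slc17a6 and Trh, and none higher, with a median of -0.53. Slc17a6, the glutamate transporter of subcortical glutamate neurons, read 9.73, 9.86 and 9.69 in dependent vBNST, 8.82, 10.04, 10.45 and 10.65 in non-dependent vBNST and 10.88, 11.15, 11.09 and 10.37 in naive vBNST. Dependent arrays lay below all naive ones. The same gene differed by -1.07 in dlBNST and by -1.83 in BLA, and the region test gave -0.40 (adjusted p = 0.938). The mean of the list was 6.44 to 6.81 in dependent vBNST, 5.71 to 7.11 in non-dependent vBNST and 6.85 to 7.34 in naive vBNST, and Hcrt, Pmch, Avp and Sim1 were under the filter.

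The markers of the extended amygdala divided, with 3 higher (Meis2, Pdyn and Zfhx3) and 5 lower (Cyp19a1, Cartpt, Dlx1, Tac1 and Penk) of 19, and a median of -0.00. Dlx1 read 8.11, 8.95 and 8.58 in dependent vBNST and 9.19, 9.99, 10.14 and 9.71 in naive vBNST. Choroid plexus and ependyma markers gave 2 of 4 higher, Ttr and Otx2. Ttr, the transthyretin of choroid plexus, read 8.03, 7.23 and 9.40 in dependent vBNST, 5.54, 9.55, 9.78 and 7.67 in non-dependent vBNST and 6.97, 6.81, 5.05 and 4.48 in naive vBNST. The mean of the 4 markers was 5.62 to 6.14 in dependent vBNST, 5.39 to 6.62 in non-dependent vBNST and 4.56 to 5.45 in naive vBNST, while Kl, Folr1 and Aqp1 were under the filter. The part of choroid plexus RNA in the other differences was not tested.

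The other cell classes are read against 5.81% higher and 9.16% lower over all genes. Neuron markers had 1 higher and 1 lower of 14 (mean 10.28 to 10.36 in dependent vBNST and 10.23 to 10.39 in naive vBNST), and astrocyte markers 0 higher and 1 lower of 15 (10.33 to 10.54 in dependent vBNST and 10.37 to 10.66 in naive vBNST). Oligodendrocyte and myelin markers had 0 higher and 1 lower of 15, Mbp, at 10.27 to 10.99 in dependent vBNST and 10.79 to 11.19 in naive vBNST, whose 2 other probe sets differed by 0.12 and 0.02. Microglia markers had 1 higher of 8, C1qa of the complement system, and endothelial and mural markers 2 higher of 8, Flt1 and Tek. Cortical markers had 0 higher and 1 lower of 6, cholinergic markers 1 higher of 4, Zic4, and neither oligodendrocyte precursor markers (5 tested) nor blood cell genes (1 tested) had any. Thalamic and septal markers had more, with 2 higher (Tcf7l2 0.82 and Rgs16 0.37) and 3 lower (Slc17a6 -1.11, Trpc4 -0.53 and Ntng1 -0.51) of 7, and a median of -0.00. Tcf7l2, a transcription factor of thalamic neurons, read 9.34, 9.14 and 8.82 in dependent vBNST, against 8.30, 8.34, 8.26 and 8.23 in naive vBNST, with no overlap.

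**Figure D5:**
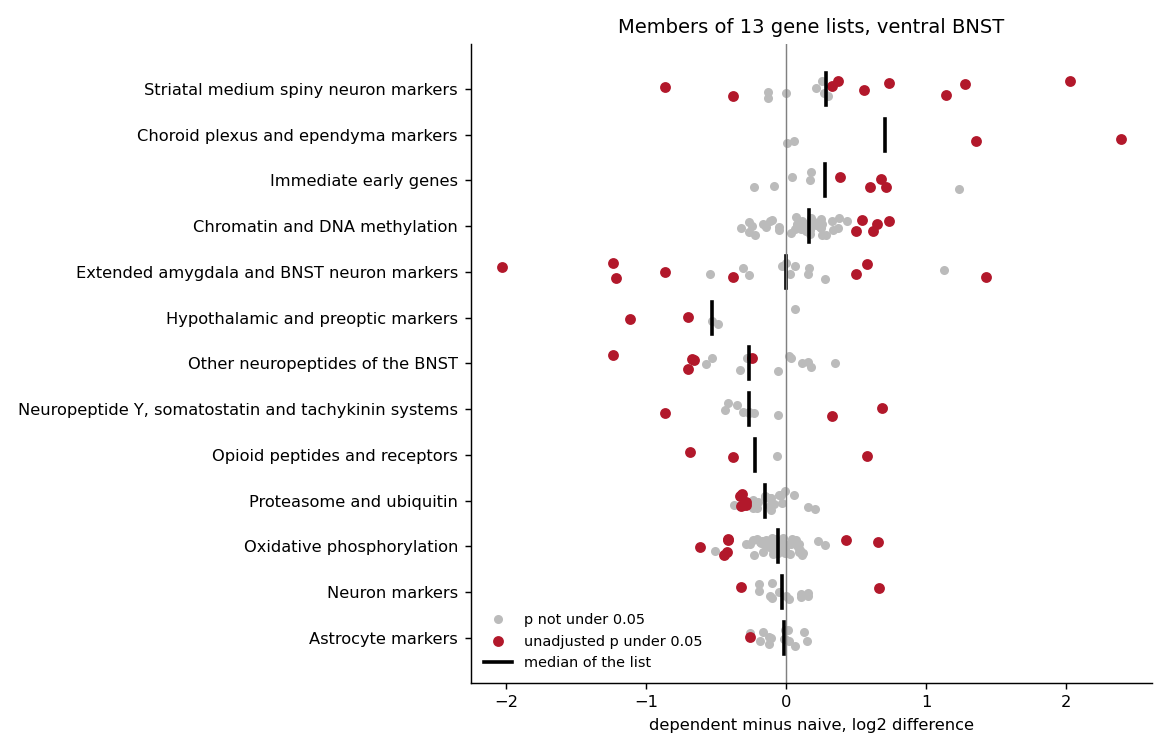
Dependent minus naive difference in log2 units (x axis) of each tested member of 13 gene lists; red points have an unadjusted p under 0.05 and black bars are list medians. Striatal markers lie mostly to the right (median 0.29), hypothalamic markers to the left (median -0.53), and neuron and astrocyte markers around 0.

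Over all genes 55.6% of differences were negative, which the lists that follow are read against together with the 5.81% higher and 9.16% lower at an unadjusted p under 0.05. Of 16 other BNST neuropeptide genes tested, 5 were lower and none higher at an unadjusted p under 0.05 (10 negative, median -0.26): Cartpt (-1.23), Trh (-0.70), Galr2 (-0.67), Cck (-0.66) and Chgb (-0.25). Cartpt, a peptide of feeding and reward circuits, read 7.93, 8.29 and 8.09 in dependent vBNST, against 9.74, 9.48, 9.38 and 8.75 in naive vBNST. Of 12 genes of the neuropeptide Y, somatostatin and tachykinin systems, Tac1 was lower (-0.87), Sstr3 (0.33) and Tacr3 (0.69) were higher, and the median was -0.27. Npy1r differed by -0.41 (adjusted p = 0.508).

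In the opioid list, with 4 genes tested, Penk and Oprk1 were lower and Pdyn higher. Penk, the enkephalin precursor, read 12.26, 12.36 and 12.41 in dependent vBNST, against 12.84, 12.74, 12.53 and 12.77 in naive vBNST, a difference of -0.38 (SE 0.11, adjusted p = 0.153). Pdyn, the dynorphin precursor, read 8.37, 8.41 and 8.33 in dependent vBNST, against 8.08, 7.93, 7.40 and 7.76 in naive vBNST, a difference of 0.57 (SE 0.20, adjusted p = 0.21). The 2 peptides were thus set apart in opposite directions. Oprk1, the dynorphin receptor, differed by -0.69 with overlapping groups.

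Corticotropin-releasing factor itself did not separate the groups. Crh read 8.54, 8.29 and 7.68 in dependent vBNST, 8.50, 6.60, 7.51 and 6.85 in non-dependent vBNST and 8.36, 6.07, 6.15 and 7.59 in naive vBNST, a difference of 1.13 with an SE of 0.55 (adjusted p = 0.368). The naive arrays alone spanned more than that difference. Its binding protein Crhbp differed by -0.10 (SE 0.19), Ucn and Ucn2 were under the filter, and of the 6 genes of this list tested only Adcyap1, a peptide that activates adenylate cyclase, was lower (-1.37). Nr3c1, the glucocorticoid receptor, read 11.03, 10.94 and 10.76 in dependent vBNST, against 10.89, 11.01, 10.79 and 10.78 in naive vBNST, a difference of 0.04 (SE 0.11, adjusted p = 0.894). Of 13 glucocorticoid receptor and induced genes tested 1 was higher, Cdkn1a (0.40). Of 14 genes that the study named as regulators, 1 was higher, Smarca4 (0.54, but 0.10 by its other probe set), a chromatin remodeling enzyme; that list was chosen on these samples and is no independent evidence.

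GABA signaling had 0 higher and 1 lower of 16, Gabra5 (-0.63), the alpha 5 subunit of the GABA-A receptor, which read 10.64, 10.83 and 10.58 in dependent vBNST, against 11.23, 11.48, 11.51 and 11.04 in naive vBNST. Glutamate receptors and transporters had 2 higher and 2 lower of 23, monoamine receptors and transporters 1 higher and 1 lower of 8, calcium and sodium channels 0 higher and 2 lower of 16, potassium and HCN channels 2 higher and 4 lower of 26, and synaptic vesicle genes 1 higher and 2 lower of 21.

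Of 10 immediate early genes tested, 4 were higher and none lower (Egr1 0.67, Nr4a3 0.71, Egr2 0.60 and Jund 0.38; median 0.28). The mean difference of the other 7 regions was 0.28 for Egr1, 0.45 for Nr4a3, 1.03 for Egr2 and 0.03 for Jund. None of the 4 passed the region test (limma, adjusted p 0.69 to 0.936). Egr1, a transcription factor induced by neuronal activity, read 10.25, 10.67 and 11.10 in dependent vBNST, against 10.02, 10.01, 10.05 and 9.92 in naive vBNST. Of 44 chromatin genes, 5 were higher and none lower (median 0.17): Chd4 (0.73), Kmt2a (0.65), Arid1a (0.62), Smarca4 (0.54) and Sirt2 (0.50). Further probe sets gave 0.03 and 0.12 for Kmt2a and 0.10 for Smarca4, none with an unadjusted p under 0.05, and 0.58 for Arid1a. Arid1a, a subunit of the SWI/SNF remodeling complex, read 10.12, 10.44 and 10.32 in dependent vBNST, against 9.24, 9.64, 9.84 and 9.97 in naive vBNST. Splicing and RNA-binding genes had 3 higher and 2 lower of 44 and a median of -0.02.

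Of 33 proteasome and ubiquitin genes, 6 were lower and none higher, 30 differences were negative and the median was -0.15; the 6, all proteasome subunits (Psmb5, Psmb7, Psmc4, Psmd1, Psmd7 and Psmd12), differed by -0.33 to -0.29, though a further probe set of Psmd7 gave 0.30. Psmb5, a catalytic subunit, read 11.74, 11.93 and 11.86 in dependent vBNST, against 12.16, 12.12, 12.03 and 12.22 in naive vBNST. Of 54 oxidative phosphorylation genes, 5 were lower and 2 higher (37 negative, median -0.06), a share of lower genes close to that over all genes, among them Atp5f1a of the ATP synthase (-0.62) on the lower and Cox5a of cytochrome c oxidase (0.66) on the higher side. Ribosomal protein genes had 2 higher and 2 lower of 39, chaperones 1 higher of 23, clock genes 1 lower of 14 and inflammatory genes 1 lower of 10, Ptgs2 (-0.85).

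Enzymes of ethanol and aldehyde metabolism had 1 higher and 3 lower of 10 (median -0.15), against 5.81% higher and 9.16% lower over all genes. Aldh1a1, which oxidizes retinaldehyde and acetaldehyde, read 6.10, 6.51 and 6.87 in dependent vBNST, 5.59, 6.82, 6.76 and 6.91 in non-dependent vBNST and 8.88, 7.18, 8.14 and 7.81 in naive vBNST. Both drinking groups lay below every naive array. In naive rats its mean was 8.00 in the vBNST and 12.20 in the VTA, where dopamine neurons express it.

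Promoters were read from RefSeq (GRCr8), 300 bases around each gene's start. They are shown for 2 genes of the region test, Arpp21 on the higher and Frem3 on the lower side, and for Crebrf. Of the 20 genes named first, 16 had a promoter to search, and only that of Crebrf held a match to any of the 3 motifs. Capitals mark the E-box CACGTG, and the other 2 promoters are in lower case because they hold no match.
Arpp21, chr8:121031308-121031607, minus strand: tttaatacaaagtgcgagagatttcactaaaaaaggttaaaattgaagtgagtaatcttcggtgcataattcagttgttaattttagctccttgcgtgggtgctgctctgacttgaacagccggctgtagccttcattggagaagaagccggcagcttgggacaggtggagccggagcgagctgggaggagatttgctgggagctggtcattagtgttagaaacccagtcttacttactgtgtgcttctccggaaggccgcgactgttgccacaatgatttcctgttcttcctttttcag
Frem3, chr19:44271088-44271387, minus strand: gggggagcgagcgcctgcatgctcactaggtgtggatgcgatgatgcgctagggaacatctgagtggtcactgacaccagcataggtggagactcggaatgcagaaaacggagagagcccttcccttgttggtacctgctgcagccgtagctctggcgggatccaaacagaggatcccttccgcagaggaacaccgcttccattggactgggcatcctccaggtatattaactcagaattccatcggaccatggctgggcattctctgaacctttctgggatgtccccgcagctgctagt
Crebrf, chr10:16966381-16966680, minus strand: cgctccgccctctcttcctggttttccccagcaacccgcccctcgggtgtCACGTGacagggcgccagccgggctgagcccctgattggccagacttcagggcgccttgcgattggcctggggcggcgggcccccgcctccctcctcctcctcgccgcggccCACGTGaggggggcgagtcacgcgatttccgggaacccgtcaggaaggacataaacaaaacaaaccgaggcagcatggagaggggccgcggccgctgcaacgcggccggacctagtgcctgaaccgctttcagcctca

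The Crebrf window holds the E-box at 2 places, and the gene was lower in dependent vBNST. E-boxes were in 78 of 659 promoters (11.8%) of genes lower at an unadjusted p under 0.05, in 31 of 422 (7.35%) of genes higher, in 713 of 7281 (9.79%) of all genes tested and in 2148 of 33469 (6.42%) of all promoters. The cyclic AMP response element TGACGTCA was in 3.49% of the promoters of lower genes, 3.32% of those of higher genes, 3.36% of those of all genes tested and 1.83% of all promoters. ACANNNTGT, the spacing of the glucocorticoid response element, was in 3.64% of lower, 2.37% of higher, 3.32% of all tested genes and 6.86% of all promoters. All 3 motifs were searched on both strands, read the same on each, and none contains another. Of the 13 genes of the region test, 8 had a promoter in the table, and only that of Prpf19 held a match, an E-box.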

How the data were processed

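RNA (30 or 50 ng, per the labels) was amplified and hybridized to Affymetrix RN230.2 arrays. The authors computed the deposited log2 signals with GCRMA (2.36.0 under R 3.03, per the labels); their Cleaner step is not part of these values. Of 31099 probe sets, 20832 name 1 gene, 436 several and 9831 none in the array annotation. Each of 14218 genes was represented by its brightest probe set, judged by the mean of 96 arrays, and genes with a mean above 4 over the arrays of a fit were tested. limma 3.58.1 (R 4.3.3) was fitted on group means, with eBayes and Benjamini-Hochberg adjustment at 0.05, on 11 vBNST arrays (8 residual degrees of freedom), on 23 arrays of the vBNST and dlBNST, and on 92 arrays of 8 regions, leaving out 4 that stand apart. Tables were made in Python 3.11.15. The labels do not say that numbers mark rats across groups, and p-values measure the spread between arrays.

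In data simulated for the vBNST comparison over 8697 genes, limma called 20 of 65 genes given a log2 shift of 0.5, 59 of 69 given 1, 65 of 66 given 2, and 5 of 8497 left unshifted. The simulated noise was independent between genes and arrays, without the differences in quality that real arrays carry. This recovery therefore does not carry over to the real arrays, where 44 genes differed by more than 1 and none passed. Arrays give no read depth, so their number limits the precision. Named genes are the 10 of smallest p per direction, the 5 of smallest p in each region test, fixed markers and genes said to be chosen after their values were seen. Members and lists were chosen with earlier results of these data known. The alternatives were other array sets, weights, filters, scalings, probe set rules, covariates, a replicate block and leaving out each array.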

Additional observations from a re-analysis of the deposited data

Results flagged for a closer look

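For 13 genes the dependent minus naive difference in the vBNST departed from the mean of the other 7 regions by a test of that difference (limma, adjusted p 2.74e-08 to 0.0472). On the log2 scale the departures were 1.82 for Arpp21, 1.38 for Zfp503, 1.29 for Bcl11b, 1.02 for Camk2n1, 0.92 for Mpped2 and 0.64 for Prpf19 on the higher side. On the lower side they were -2.58 for Frem3, -2.24 for Cbln1, -2.17 for Moxd1, -1.93 for Cyp19a1, -0.92 for Uckl1, -0.77 for Cpsf3 and -0.68 for Nol10.

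In 7 of 90 groups of 4 arrays examined for the named genes, a single array lay far from the other 3; chance alone does this in about 1 group of 20. In non-dependent vBNST these were Ccdc77 (5.25), Crebrf (8.28), Crhbp (3.88) and Cbln1 (3.33, replicate 1). In naive vBNST they were Uckl1 (8.10), Rbbp5 (7.15) and Nol10 (9.03).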

How the results depend on the processing

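The count of 0 genes in the vBNST moved with the processing, as did its parts higher and lower in dependent rats. It became 5 (1 higher, 4 lower) with the 4 naive and 3 dependent arrays alone, 124 (50 higher, 74 lower) with array weights over all 12 arrays, 93 (41 higher, 52 lower) with weights over the 11 arrays, 4 (all lower) with a filter above 6 or with median scaling, 2 (both lower) with the mean of a gene's probe sets, and 11 (6 higher, 5 lower) with every probe set tested. Leaving out each array in turn gave 0 to 21 genes, 0 to 7 higher and 0 to 14 lower. No gene passed with all 12 arrays, no filter, quantile normalization, a covariate for hybridization controls or for 3′ minus 5′ signal, the pairwise t-statistic, or eBayes with trend and robust. With the Gapdh 3′ minus 5′ difference as a covariate, added after seeing that it separates the groups, no gene passed, and 53.3% of genes with an unadjusted p under 0.05 were higher, against 38.8% without it.

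The replicate block gave 3 genes (2 higher, 1 lower) in the vBNST and 13 in the region test. The numbers were not taken to pair the arrays: deviations of same-numbered dependent and naive arrays correlated at 0.072, 0.127 and 0.164.

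The 13 genes of the region test became 6 with the arrays that stand apart included and 22 with array weights by region, a setting added after the data were seen; leaving out each vBNST array gave 6 to 13. The dlBNST test gave 0 to 1. Of 923 values of the named genes under alternatives, 798 kept their side of the threshold, 90 passed it newly, 35 no longer passed and none changed sign. The sizes moved more than the sides: 24 values were under the reported one by over 1.5 times and 8 above it. The mean of probe sets made 11 smaller (Rragc -0.23, against -0.70; Gosr1 0.25, against 0.68; Hpcal1 -0.35, against -0.85). The Gapdh covariate made 7 smaller (Cpsf3 -0.07, against -0.87; Vcl 0.13, against 0.77; Nol10 -0.24, against -0.74) and 6 larger (Cyp19a1 -4.35, against -2.03; Prpf19 1.19, against 0.49). Dependent replicate 1 made 4 smaller and 2 larger in the vBNST, and the arrays that stand apart made 2 smaller in the region test (Bcl11b 0.78, against 1.29; Zfp503 0.86, against 1.38).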
